A study of Mus musculus with 2 samples.

Results

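The transcripts described here encode 28 proteins of the small (40S) subunit of the cytosolic ribosome, measured in mouse morulae after injection of double-stranded RNA. The genes were chosen by symbol from a fixed list, all 28 were found among the 12836 genes of the deposited table, and all 28 passed the filter on low values used below. The dsNat10 group is 1 library made from embryos of the ICR stock that received double-stranded RNA matching Nat10. The dsGFP group is 1 library made from ICR embryos that received double-stranded RNA matching GFP, a sequence foreign to the mouse. Both groups are pools of embryos in which injection can lower a transcript but deletes no gene. The protocol counts 50 embryos, without saying if these are per library or in all. With 1 library per group there is no replicate check, no p-value is given, and every interval below covers the counting error of reads only.

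The 40S subunit is the part of the ribosome that binds the mRNA and reads its codons. It consists of the 18S ribosomal RNA and a set of proteins that are present, with few exceptions, in a single copy per subunit. The mRNAs of these proteins typically begin with a C followed by an unbroken run of pyrimidines, the 5′ terminal oligopyrimidine (TOP) tract, through which mTOR signalling regulates their translation. Nat10, the target of the injected RNA, acetylates cytidines of RNA and is known to modify 18S ribosomal RNA and to act in its processing.

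The libraries held 28303119 reads in dsNat10 and 29139232 reads in dsGFP. Nat10 had 37 reads in dsNat10 and 886 in dsGFP, which is 23.7-fold lower (95% counting interval 17.1 to 33.9). Falls of that size were not particular to Nat10, since 313 of the 8738 genes averaging at least 5 CPM had 0 reads in dsNat10. Of 10 marker genes of the morula and its first lineages, 9 were in the table (all but Sox2), with a summed level of 18056 TPM in dsNat10 and 17167 TPM in dsGFP. The sum is mostly Dppa5a (15850 TPM in dsNat10 and 14236 TPM in dsGFP), and 6 of the 9 were lower in dsNat10, among them Nanog with 156 TPM in dsNat10 and 469 TPM in dsGFP and Cdx2 with 2.90 TPM in dsNat10 and 12.6 TPM in dsGFP. Of the markers of other cells, the only 1 of 5 cumulus cell genes in the table was Amhr2 (23.9 TPM in dsNat10 and 26.9 TPM in dsGFP), the 3 of 6 blood and fibroblast genes summed to 63.9 TPM in dsNat10 and 57.3 TPM in dsGFP with Col1a1 at 0 in dsNat10 and at 0.08 TPM in dsGFP, and 0 of 4 sperm genes were in the table. The part of these differences between the pools in the results below was not tested. In pooled embryos, fewer cells of a type and less RNA per cell cannot be told apart.

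The starts of the members' transcripts are shown because the TOP tract is the sequence feature for which this family is known. The table of RefSeq promoters used here, on GRCm38.p6, holds a start for 24 of the 28 genes. At the annotated start, 7 of these 24 (29.2%) had a C followed by at least 4 bases that are each C or T, read on the strand of the gene, against 2.84% of the 7116 tested genes with a given start and 3.01% of all 27025 genes of that table. A C with at least 4 such bases after it lay within 10 bases of the start, on either side, in 15 of the 24 (62.5%), against 36.6% of the tested genes. Such a C can lie inside a run that began farther upstream. Of 36 large-subunit genes with a given start, 19.4% had the tract at the start and 58.3% within 10 bases. Of 12 other genes known for a TOP tract, 16.7% and 50% did. The windows below run 15 bases before the start and 15 bases from it, with the tract in capitals where it begins exactly at the start.
Rps6 (chr4:86857353-86857382, minus strand): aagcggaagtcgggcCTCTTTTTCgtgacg
Rps18 (chr17:33955651-33955680, minus strand): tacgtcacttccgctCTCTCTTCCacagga
Rps10 (chr17:27635230-27635259, minus strand): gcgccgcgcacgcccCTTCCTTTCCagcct
Rps15a (chr7:118116133-118116162, minus strand): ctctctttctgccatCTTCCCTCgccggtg
Rps27 (chr3:90213634-90213663, minus strand): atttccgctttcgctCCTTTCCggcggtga
Fau (chr19:6057932-6057961, plus strand): tgcgcgcccccacttCTTCCTCTTTCTTga
Rps2 (chr17:24720048-24720077, plus strand): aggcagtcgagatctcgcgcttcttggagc
Rpsa (chr9:120127751-120127780, plus strand): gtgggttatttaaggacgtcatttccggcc
Rps21 is the seventh gene with a tract at its start. Rps2 and Rpsa are shown because they lie near the ends of the range of ratios below, and neither has a tract exactly at the start given in that table. The start given for Rps2 lies inside the gene's RefSeq span, which begins at base 24718121, so another start of Rps2 is not shown. The absence of a match says only that these letters are not at this position.

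Fau and Rps14 had the highest TPM of the 28 genes, and Rps6, Rps15a and Rps20 the lowest. TPM divides reads by a length set for each gene and scales each library to 1000000, so it allows levels of different genes to be compared as far as that length holds. Fau, which encodes the ubiquitin-like protein Fubi fused to the ribosomal protein S30, stood at 4197 TPM in dsNat10 and 3747 TPM in dsGFP. Rps14, a protein of the platform near the mRNA exit whose human gene lies in the region lost in the 5q- syndrome, had 3640 TPM in dsNat10 and 3691 TPM in dsGFP. Rps19, the gene most often mutated in Diamond-Blackfan anaemia in humans, had 2472 TPM in dsNat10 and 2988 TPM in dsGFP. These 3 genes have the highest mean TPM of the list, although Rps2 and Rps26 stood above Rps19 in dsNat10.

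The median gene had 1204 TPM in dsNat10 (quartiles 727 and 1973) and 1316 TPM in dsGFP (quartiles 873 and 2114). In both libraries 16 of the 28 genes lay within 2-fold of that median. The highest level was 152 times the lowest in dsNat10 and 78.3 times the lowest in dsGFP. That span rests on 3 genes whose values depend on read assignment or on the transcript length used, as described below. Without Rps6, Rps15a and Rps20, which were set aside after their values were seen, the highest level was 15.7 times the lowest in dsNat10 and 10.4 times in dsGFP. Among the other 25 genes, Rpsa, the laminin receptor protein at the mRNA exit, had the lowest level in dsNat10 (268 TPM), and Rps12, a protein of the beak of the head, had the lowest in dsGFP (361 TPM).

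The order of the genes was much the same in both libraries. Pearson's r of log2 TPM between dsNat10 and dsGFP was 0.99 over the 28 genes (Spearman's rho 0.96), a description only, since the points share each gene's length and sequence. The rank moved by at most 2 places for 23 of the 28 genes. Rps2 moved farthest, standing at rank 3 in dsNat10 and at rank 11 in dsGFP.

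**Figure D1:**
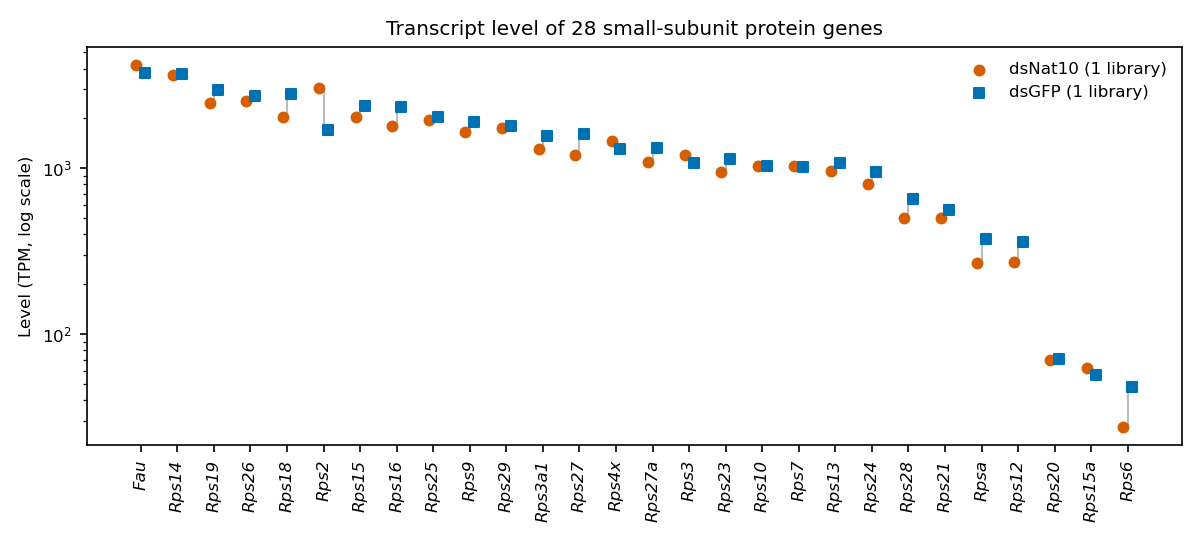
Level of each of the 28 genes in TPM (log scale) in the dsNat10 library (orange circles) and the dsGFP library (blue squares), in order of mean TPM from left to right. Fau is highest and Rps20, Rps15a and Rps6 stand apart at the low end, all 3 under 100 TPM in both libraries, while Rps2 is the gene with the widest gap among those with dsNat10 above dsGFP.

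For Rps15a and Rps20 the low TPM goes with a long transcript model. The length that the deposited FPKM implies for each gene (reads over FPKM and the library total) was 4952 bases for Rps15a in dsNat10 and 4949 bases in dsGFP, against a coding length of 390 bases in GENCODE M21. Coding length here is the longest coding sequence among the protein-coding transcripts of a gene, which need not be the one present. For Rps20 it was 3261 bases in dsNat10 and 3259 bases in dsGFP, against 357 coding bases. These lengths are 12.7 and 9.14 times the coding length, whereas the ratio was between 0.594 and 2.32 for the other 26 genes, with a median of 0.960 over all 28. The implied length is not a full transcript length. For Rps27 it was 162 bases in dsNat10, against 252 coding bases in a transcript of 345 bases. TPM levels of short genes rest on such shortened lengths. GENCODE lists protein-coding transcripts of up to 5179 bases for Rps15a and 3706 bases for Rps20, and also one of 640 bases with the full coding sequence of Rps15a.

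When reads were instead divided by coding length, Rps15a and Rps20 stood closer to the other genes, though still below the median. Rps15a had 536 reads per coding kilobase in dsNat10, scaled to 1000000 library reads, and 507 in dsGFP, and Rps20 had 434 in dsNat10 and 455 in dsGFP. The median of the 28 genes on this scale was 936 in dsNat10 and 1069 in dsGFP. On it, 19 of the 28 genes lay within 2-fold of the median in both libraries. Rps20 lay outside that range in both libraries and Rps15a in dsGFP. Other ranks depended on the length as well. Rps19, with the smallest implied length for its coding length, fell from rank 5 in TPM to 12 in dsNat10 and from 3 to 10 in dsGFP. Its coding length of 636 bases is the longest among 6 protein-coding transcripts. Both its rank per coding kilobase and that smallest ratio depend on this choice, and a shorter coding sequence was not tried. Rps3, at 2.32 times its coding length, rose from rank 15 to 3 in dsNat10 and from 18 to 4 in dsGFP. Rpsa, lower than Rps12 in TPM in dsNat10, had 344 per coding kilobase there, against 139 for Rps12. Which transcript was present cannot be read from values per gene.

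Rps6, the substrate of the S6 kinases, was lowest on both scales, and its reads are shared with a copy of identical coding sequence. Rps6 (Entrez gene 20104, GRCm38.p6 chromosome 4, bases 86854099 to 86857367) had 27.6 TPM from 644.87 estimated reads in dsNat10 and 47.9 TPM from 1176.78 in dsGFP. The table also holds Rps6-ps4 (Entrez gene 105244208, chromosome 2, bases 75190995 to 75191854), a processed pseudogene in GENCODE, with 3138 TPM from 38398.1 reads in dsNat10 and 3567 TPM from 45786.2 reads in dsGFP. All 747 coding bases of Rps6 are found without a difference in the transcript of Rps6-ps4. The first 90 bases of each are shown from the start codon, in capitals, to make that identity visible.
Rps6: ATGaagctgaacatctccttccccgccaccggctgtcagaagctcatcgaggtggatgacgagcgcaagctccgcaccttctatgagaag
Rps6-ps4: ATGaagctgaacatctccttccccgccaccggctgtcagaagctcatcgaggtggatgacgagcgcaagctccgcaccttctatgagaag
Only 1.65% of the joint reads in dsNat10 and 2.51% in dsGFP were assigned to Rps6. The joint level was 3166 TPM in dsNat10 and 3615 TPM in dsGFP, 1.19-fold lower in CPM (1.17 to 1.21), where Rps6 alone was 1.81-fold lower (1.64 to 1.99). The value of Rps6 alone is therefore uncertain, both as a level and as a ratio.

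Near-identical copies are common in this family. The 28 coding sequences, each the longest listed for its gene, were searched for copies at 90% identity over at least 80% of their length. Of the 28 genes, 26 had at least 1 other gene in GENCODE with such a transcript, and Rps2 had the most, 43. Only 5 members had such a copy among the genes of the deposited table. Rps27 matches Rps27rt (16.9 TPM in dsNat10 and 30.0 TPM in dsGFP) over all 252 coding bases, and Rps23 matches Gm5148 without a difference over 398 aligned bases. Rps24 matches Gm4832, with 0 reads in dsNat10 and 11 in dsGFP, and Rps26 matches a transcript listed under Med21. Estimated counts were fractional for Rps6, Rps16, Rps23, Rps25 and Rps27, whose values are uncertain for this reason. Reads that came from copies outside the table were not analysed here.

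**Figure D2:**
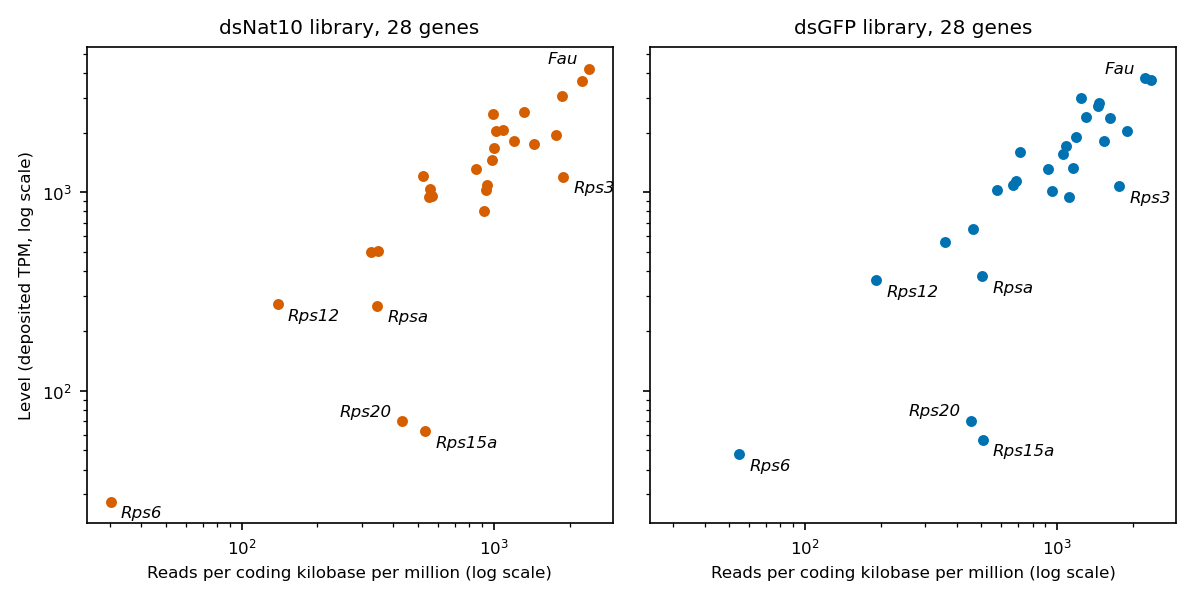
Deposited TPM against reads per coding kilobase scaled to 1000000 library reads, both on log scales, for the 28 genes in the dsNat10 library (left) and the dsGFP library (right). Rps15a and Rps20 lie far below the other genes at their read density, with 12.7 and 9.14 times their coding length implied by the deposited values, and Rps6 is low on both axes.

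Most of the 28 transcripts were slightly lower in dsNat10 and Rps2 alone was clearly higher. The median log2 ratio of CPM (dsNat10 over dsGFP, with a pseudocount of 1 CPM) was -0.24, against 0.01 over the 8738 genes averaging at least 5 CPM (tested genes) and -0.04 over the 1126 genes averaging at least 200 CPM (abundant genes). It was -0.14 over the 23 members with whole-number counts and -0.19 over the 22 members that are abundant genes. Of the 28 genes 23 had a log2 ratio below 0 (82.1%), beside 49.5% of tested genes and 55.1% of abundant genes. By the rule that the counting interval excludes equality, 22 of 28 were lower (78.6%) and 5 were higher, beside a background of 44.2% lower and 45.2% higher among tested genes and of 50.3% lower and 40.6% higher among abundant genes. Of the 22 members that are abundant genes, 16 were lower (72.7%) and 5 were higher. The share that was lower was thus above the background in both sets, and the sizes were small. A modest size was set at a CPM at least 20% lower or at least 25% higher. Past it, 7 of 28 were lower (25%), beside a background of 33.5% among tested genes. Of the 22 abundant members 3 were (13.6%), beside 22.7% of abundant genes, so neither share was above its background. Only Rps2 was higher by that size, beside a background of 35.3% among tested genes and of 17.1% among abundant genes. No member reached a log2 ratio of 1 in either direction, beside a background of 15.3% lower and 15.2% higher among tested genes and of 1.42% lower and 1.6% higher among abundant genes.

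In sum the members took 391471 reads in dsNat10, or 1.38% of the library, and 416555 reads in dsGFP, or 1.43%. Their summed level was 39944 TPM in dsNat10 and 42393 TPM in dsGFP. The summed CPM was 1.05-fold lower in dsNat10 (1.05 to 1.06), and 1.12-fold lower (1.11 to 1.12) without Rps2.

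**Figure D3:**
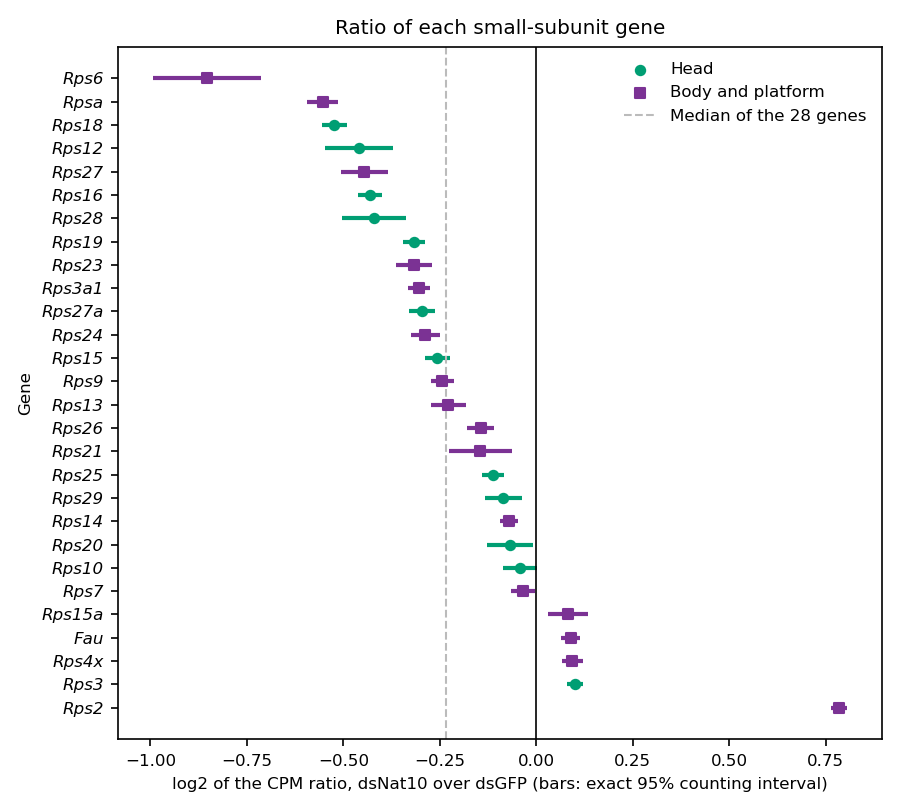
The log2 ratio of CPM, dsNat10 over dsGFP, of each gene with its exact 95% counting interval, ordered from lowest at the top to highest at the bottom and coloured by position on the subunit, with a dashed line at the median log2 ratio. Intervals of 22 genes lie below 0 and those of 5 lie above it, and Rps2 stands apart at the high end.

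Rps2 had by far the largest ratio of the 5 members that were higher. It encodes a protein at the mRNA entry channel of the subunit that is methylated by Prmt3 (Entrez gene 16898, GRCm38.p6 chromosome 17, bases 24718121 to 24721927). Rps2 reached 48343 reads and 3068 TPM in dsNat10, against 28348 reads and 1713 TPM in dsGFP, which is 1.72-fold higher in CPM (1.70 to 1.75). Its share of the members' summed TPM was 7.68% in dsNat10 and 4.04% in dsGFP. Of the 1126 abundant genes, 39 had a ratio as high, itself included (3.46%). Rps2 is singled out as the highest of the 22 abundant members, so that share does not measure how rare such a member is. Its counts are whole numbers in both libraries, although it has the most copies in GENCODE.

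The other 4 members with intervals above equality were higher by small amounts. Rps3, at the mRNA entry and also known in DNA repair, had 39315 reads in dsNat10 and 37073 in dsGFP, 1.07-fold higher in CPM (1.06 to 1.09). Rps4x, from the X chromosome, had 1456 TPM in dsNat10 and 1313 TPM in dsGFP, 1.07-fold higher in CPM (1.05 to 1.09). Fau and Rps15a were each 1.06-fold higher, with intervals of 1.05 to 1.08 for Fau and 1.02 to 1.10 for Rps15a. None of these 4 exceeded a log2 ratio of 0.10. Every fold given for a gene is of TMM-scaled CPM, and the TPM beside it is a level on another scale, whose ratios are not the same: Rps18 below was 1.39-fold lower in TPM and Rps26 1.07-fold.

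Among the lower members, Rpsa and Rps18 had the largest differences after Rps6. Rpsa (Entrez gene 16785, chromosome 9, bases 120127766 to 120132369) drew 8689 reads in dsNat10 and 12889 in dsGFP, 1.47-fold lower in CPM (1.43 to 1.51). Rps18 (Entrez gene 20084, chromosome 17, bases 33951998 to 33955665), a head protein at the bridge to the large subunit, had 2036 TPM in dsNat10 and 2827 TPM in dsGFP, 1.44-fold lower in CPM (1.41 to 1.47). Ratios as low as these were found for 9.86% and 11.1% of the 1126 abundant genes, the gene itself included. Neither value is rare among abundant genes.

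The head of the subunit carries the beak and contacts the tRNAs, and 12 members belong to it. Of these, 10 were lower (83.3%) and 1 was higher by the counting interval, with a median log2 ratio of -0.28. The background was 44.2% lower and 45.2% higher among tested genes, and 50.3% and 40.6% among abundant genes. Rps12 had 273 TPM in dsNat10 and 361 TPM in dsGFP, 1.37-fold lower in CPM (1.29 to 1.46). Rps16, whose tail reaches the peptidyl tRNA, had 1812 TPM in dsNat10 and 2357 TPM in dsGFP, 1.35-fold lower in CPM (1.32 to 1.38), with fractional counts. Rps28, near the mRNA exit, had 504 TPM in dsNat10 and 655 TPM in dsGFP, 1.34-fold lower in CPM (1.26 to 1.42), the smallest difference among the 7 genes past 20%. Rps19 followed at 1.246-fold lower, just short of that size.

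Closer to equality among the head proteins were Rps27a, Rps15, Rps25, Rps29, Rps20 and Rps10. Rps27a, which is made as a fusion with ubiquitin, had 1093 TPM in dsNat10 and 1319 TPM in dsGFP, 1.23-fold lower in CPM (1.20 to 1.26). Rps15, near the decoding site, had 2048 TPM in dsNat10 and 2387 TPM in dsGFP, 1.19-fold lower in CPM (1.17 to 1.22). Both precursor fusions with a ubiquitin-like protein, Rps27a and Fau, thus had ratios on opposite sides of equality. Rps25, known for its role in internal ribosome entry, had 1953 TPM in dsNat10 and 2033 TPM in dsGFP, 1.08-fold lower in CPM. Rps29, a zinc-binding protein, had 1752 TPM in dsNat10 and 1804 TPM in dsGFP, 1.06-fold lower in CPM, and Rps20 had 4429 reads in dsNat10 and 4693 in dsGFP, 1.05-fold lower in CPM. Rps10, which like Rps20 is ubiquitylated when ribosomes stall, had 8117 reads in dsNat10 and 8449 in dsGFP. At 1.03-fold lower in CPM (0.999 to 1.06) it was the only member whose interval held equality. In TPM its direction turned, with 1037 TPM in dsNat10 and 1032 TPM in dsGFP. The median log2 ratio over tested genes was also higher in TPM, at 0.06 against 0.01 in CPM.

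The body and platform hold the remaining 16 members, of which 12 were lower (75%) and 4 higher, beside the same background. Their median log2 ratio was -0.19. The head median lay 0.09 below it on the log2 scale, a difference within the quartile ranges of both groups. Rps27, a zinc-binding protein, had 1208 TPM in dsNat10 and 1602 TPM in dsGFP, 1.36-fold lower in CPM (1.31 to 1.42), and 1.37-fold lower when the reads of Rps27rt were added. Rps23, of the decoding centre, had 946 TPM in dsNat10 and 1137 TPM in dsGFP, 1.245-fold lower in CPM. Rps3a1, at the mRNA exit, had 1316 TPM in dsNat10 and 1564 TPM in dsGFP, 1.23-fold lower in CPM (1.21 to 1.26). These 3 lay on the lower side of the members' median.

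Rps24, mutated in Diamond-Blackfan anaemia in humans, had 801 TPM in dsNat10 and 946 TPM in dsGFP, 1.22-fold lower in CPM. Rps9, the counterpart of bacterial S4, an early binder of ribosomal RNA, had 1663 TPM in dsNat10 and 1898 TPM in dsGFP, 1.18-fold lower in CPM. Rps13 had 959 TPM in dsNat10 and 1084 TPM in dsGFP, 1.17-fold lower in CPM. Below that size the members were almost level. Rps26, at the mRNA exit, had 2552 TPM in dsNat10 and 2731 TPM in dsGFP, and Rps21 had 501 TPM in dsNat10 and 561 TPM in dsGFP, and both were 1.11-fold lower in CPM. Rps14 was 1.05-fold lower in CPM. Rps7 had 15465 reads in dsNat10 and 16004 in dsGFP, 1.02-fold lower in CPM, but 1030 TPM in dsNat10 and 1015 TPM in dsGFP, so its direction turns with the unit, as that of Rps10 does.

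**Figure D4:**
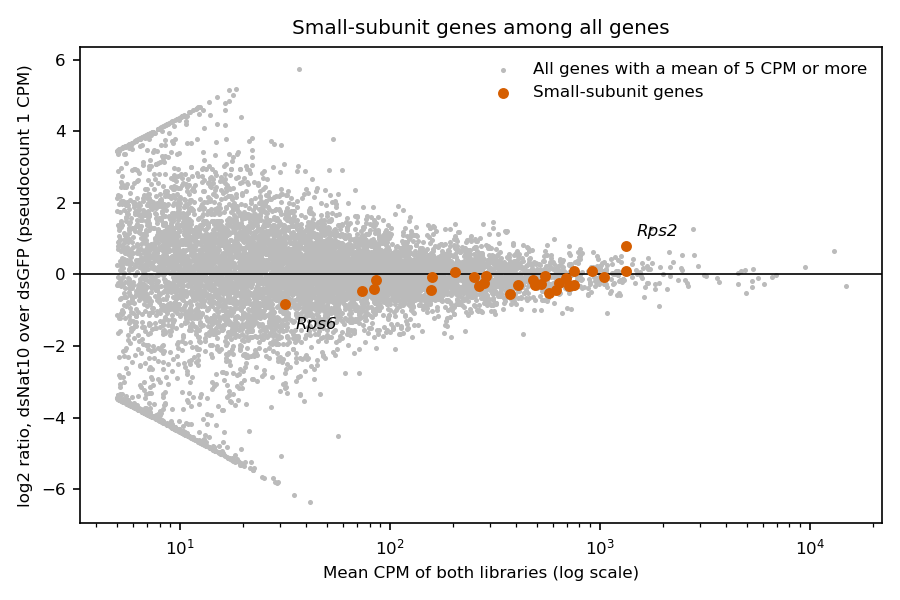
The log2 ratio, dsNat10 over dsGFP, against the mean CPM of both libraries (log scale) for the 8738 tested genes (grey) and the 28 members (orange). Most members, 22 of the 28, average at least 200 CPM and lie in the narrow, abundant part of the cloud. The members' ratios are mostly just below 0. Rps2 and Rps6 mark the ends of their range, and Rps6, at a mean of 31.7 CPM, has an uncertain ratio.

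Grouped by their starts, the 7 members with a tract exactly at the given start had a median log2 ratio of -0.14 (range -0.83 to 0.09) and the 17 without one had -0.26 (range -0.55 to 0.78). Below 0 were 5 of the 7 and 14 of the 17, beside 49.5% of tested genes. The letters CCGGAA, the core of sites bound by ETS factors, were found on either strand within the 300 bases around the start in 13 of the 24 members (54.2%), against 35.9% of the tested genes with a given start. The share was 52.8% for genes of the large subunit and 50% for other genes known for a TOP tract, so it is not particular to the members. The median log2 ratio was -0.14 for the 13 members with these letters and -0.26 for the other 11. Both groups spanned 0 in each grouping.

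Of genes tied to the small subunit but outside the 28, 3 are described, and they lay on both sides of equality. Rps27l, a paralogue of Rps27 known as a p53 target in human cells, had 2009 TPM in dsNat10 and 1712 TPM in dsGFP, 1.13-fold higher in CPM (1.10 to 1.16). Rack1, the scaffold protein on the head, had 1604 TPM in dsNat10 and 1519 TPM in dsGFP, and its interval held equality. Rps19bp1, a binding protein of Rps19, had 132 TPM in dsNat10 and 157 TPM in dsGFP, 1.24-fold lower in CPM (1.16 to 1.32).

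The large subunit had nearly the same median. Of its 49 genes, all tested, 39 were lower (79.6%) and 6 higher, beside 44.2% lower and 45.2% higher of tested genes. Their median log2 ratio was -0.22. By the modest size above, 18 were lower (36.7%) and 0 higher. The background at that size was 33.5% lower and 35.3% higher among tested genes, and 22.7% and 17.1% among abundant genes. Rpl41, its most abundant gene, had 7709 TPM in dsNat10 and 7909 TPM in dsGFP. The largest ratios were those of Rpl11, Rpl14 and Rpl21, from 1.51-fold to 1.62-fold lower, of which Rpl21 has fractional counts. The highest log2 ratio of the large subunit was 0.18, against 0.78 for Rps2 in the small subunit.

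Factors that assemble the 40S subunit were spread more widely than its proteins, though less widely than tested genes in general. Of 35 tested, 20 were lower (57.1%) and 11 higher (31.4%), beside 44.2% and 45.2% of tested genes. Their median log2 ratio was -0.11, with an interquartile range of 0.58, against 0.28 for the members. That range was 1.13 over tested genes and 0.51 over abundant genes. The members had a median of 1204 TPM in dsNat10, against 71.7 TPM for these factors. Emg1, a methyltransferase of 18S ribosomal RNA and the most abundant of them, had 331 TPM in both libraries. Riok1 and Riok2, kinases of late 40S maturation, were 3.67-fold and 2.26-fold lower, and Nop9, a nucleolar RNA-binding protein, was 3.09-fold higher (2.90 to 3.30). Among the other 20 mRNAs known for a TOP tract, 12 were lower (60%) and 5 higher (25%), with a median of -0.11. Eef1a1, the elongation factor, was level at 1955 TPM in dsNat10 and 1922 TPM in dsGFP. Eef1d was 1.77-fold lower, while Pabpc1, the poly(A)-binding protein, was 1.76-fold higher and Eif3f 1.70-fold higher, so upward ratios of the size of that of Rps2 occurred there as well. The mitochondrial small subunit had 13 of 30 lower (43.3%) and 11 higher (36.7%), beside 44.2% and 45.2% of tested genes. Its median log2 ratio was -0.05 in CPM and just above 0 in TPM. Mrps11, Mrps23 and Mrps5 were between 1.75-fold and 2.31-fold lower, and the abundant Mrps18b was 1.16-fold higher.

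**Figure D5:**
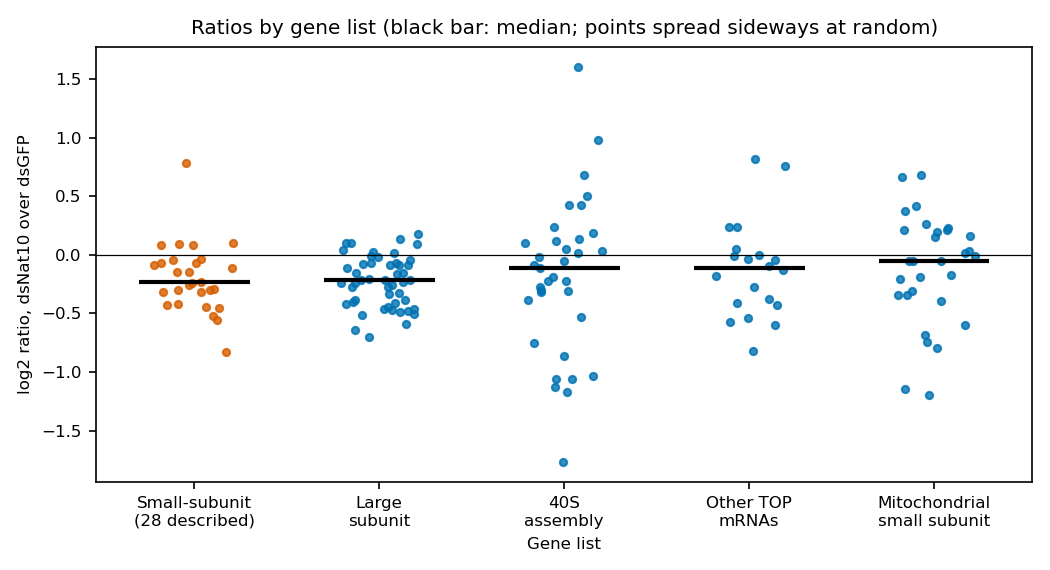
The log2 ratio, dsNat10 over dsGFP, of the 28 members (orange) and of the tested genes of 4 related lists (blue), with the median of each list as a black bar. The members and the large subunit share a low and narrow distribution, with medians of -0.24 and -0.22, and the 40S assembly factors are spread most widely of the lists shown.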

How the data were processed

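RNA from 2 pools of ICR morulae, 1 per group, was sequenced after a SMARTseq2 preparation, per the labels' protocols. That method keeps no strand, so reads of overlapping genes cannot be told apart. Per the submitters' processing notes, trimming used Trim Galore, alignment to GRCm38 used HISAT and counting used HTSeq, with no versions or annotation stated there. The authors deposited estimated counts, not normalized, which are fractional for 23.2% of the genes, a form that HTSeq in its usual settings does not give. The authors also deposited TPM and FPKM values, which divide by a gene length that is not listed.

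Estimated counts were rounded and scaled to CPM with TMM (edgeR 4.0.16, R 4.3.3), which moved log2 ratios by -0.03 against plain totals. Log2 ratios use a pseudocount of 1 CPM, and folds use none. Intervals are exact Clopper-Pearson 95% intervals of the ratio of counts. They cover counting error only, since PCR reads lacking molecular identifiers do not count separate molecules. The genes called tested average at least 5 CPM and were compared by size, with no p-value. The calls and intervals were run on simulated counts with counting error only, the error that the intervals assume. That run cannot speak to variation between pools or to amplification. Copies were sought with blastn 2.17.0 among GENCODE M21 transcripts. Coordinates are those of RefSeq for GRCm38.p6, matched by Entrez identifier for 12800 of 12836 genes.

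The members and lists were chosen with earlier results of these data known. The text names all 28 members, Nat10, and from each of 4 related lists the most abundant gene and the 3 with the largest log2 ratio. A few small-subunit genes are not reported here. Rps27l, Rack1, Rps19bp1, the genes that share sequence with a member and the marker genes were named after their values were seen, as were the CCGGAA search and the division by coding length. Alternatives tried were plain totals, DESeq2 1.42.0 size factors, TPM, FPKM, no pseudocount, other filters on low counts and whole counts only.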

Additional observations from a re-analysis of the deposited data

How the results depend on the processing

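The median log2 ratio of the members stayed below 0 in every alternative run. It was -0.18 in TPM, beside 0.06 over tested genes, and -0.14 over the 23 members with whole-number counts. With no filter on low counts it was -0.24, beside -0.14 over all genes, closer than the 0.01 over tested genes in the main setting. The members' median was -0.19 over the 22 members averaging at least 200 CPM and lay between -0.25 and -0.21 in the other alternatives. The counts of lower and higher members stayed within 1.5 times, with an exception at that filter. There 3 of the 22 members were at least 20% lower (13.6%, beside 22.7% of abundant genes), since it leaves out 4 of the 7. The ratio of summed levels, 0.942 in TPM, was 0.921 in FPKM and 0.949 in CPM. Among alternatives chosen after seeing the data it was 0.907 without Rps2 and 0.937 with the reads of Rps6-ps4 added to Rps6. The highest over the lowest level was 67.3 in dsNat10 and 66.2 in dsGFP over members with whole-number counts, against 152 in dsNat10 and 78.3 in dsGFP over all 28. Chosen after seeing the data, it was 78.8 in dsNat10 and 43.2 in dsGFP per coding kilobase (17.1 in dsNat10 and 12.3 in dsGFP without Rps6), and 15.7 in dsNat10 and 10.4 in dsGFP without Rps6, Rps15a and Rps20. In TPM the log2 ratio of Rps7 was 0.0207, against -0.03 in CPM, and that of Rps10 was 0.0082, against -0.04. The median of the mitochondrial small subunit was 0.0052, against -0.05. The median over tested genes was also higher in TPM, 0.06 against 0.01 in CPM. Rps7, Rps10 and the mitochondrial median lay below it on both scales. The cause was not tested. No library could be left out with 1 per group. No paired analysis was possible because each group has 1 library. The variation between pools of embryos was not measured, and the counting intervals do not cover it.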
